A study of Mus musculus with 9 samples.

Results

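The genes described here are 53 mouse genes of mitosis: cyclins and kinases that drive it, the spindle checkpoint, the chromosomal passenger complex, centromere and kinetochore proteins, mitotic kinesins, spindle proteins, cytokinesis proteins and proteins of the mitotic chromosome. They were taken by gene symbol, and all 53 were found once in a table of 35112 genes measured by RNA sequencing of mouse brain. The table covers 3 groups of wild type C57BL/6 mice, all sampled 72 hours after their procedure, with 3 separate mice per group. ICH+P7C3-A20 mice had an intracerebral haemorrhage (ICH, bleeding into brain tissue) and received P7C3-A20, a carbazole compound studied for its protection of neurons. ICH mice had the haemorrhage without the compound, and sham mice had the control procedure. The labels give neither the dose, the way the haemorrhage was made, the age of the mice nor the brain region, and each library is bulk tissue in which all cell types are mixed.

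Cells enter mitosis when CDK1 binds cyclin B, and Polo-like and Aurora kinases then build the spindle and condense the chromosomes. Kinetochores on each centromere attach to spindle microtubules, and the spindle checkpoint holds back the anaphase-promoting complex until every chromosome is attached. CDC20 and UBE2C then drive the destruction of securin and cyclin B, the sister chromatids part, and the cell is cleaved. Most of these genes are transcribed in G2 and M phase of dividing cells and shut off in resting ones, so their RNA is scarce in the normal adult brain, where neurons do not divide. After brain injury, microglia, astrocytes, oligodendrocyte precursors, endothelial cells and infiltrating leukocytes are the cells known to divide.

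Libraries held 51537047 to 63324728 estimated counts, and 3 counts in 1 library corresponded to 0.0455 to 0.0625 CPM, counts scaled by library size. The scarcest member in sham had 58 counts over the 3 sham libraries together. All 53 members passed the filter on low counts, with 21900 genes tested in all. FPKM are fragments scaled by transcript length and by library size, so that levels can be set side by side between genes. Libraries are named by group and replicate, as in ICH 2. ICH+P7C3-A20 1 stood apart from the other libraries of its group: it was the lowest of the 3 for 52 of 53 members, and its summed FPKM over the members was 45.68, against 96.55 and 84.41 in ICH+P7C3-A20 2 and 3. Its summed FPKM over 5 neuron markers was 496.0, against 398.4 and 363.5 in those libraries, and over 7 microglia markers 136.2, against 233.2 and 224.7.

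Promoter sequence was looked at because genes of G2 and M phase commonly share a pair of elements near their start site. The cell cycle genes homology region, CHR, is bound by the MuvB core of the DREAM and B-MYB complexes, and the CCAAT box is bound by NF-Y. RefSeq promoter windows (GRCm38.p6), from 250 bases before the start site to 50 bases after it, were found for 43 of the 53 members. The letters TTTGAA on either strand, the commonest form of the CHR, were present in 33 of these 43 genes (76.7%), against 20.2% of all 27025 genes with such a window. The letters CCAAT on either strand were present in 30 of the 43 genes (69.8%), against 41.1% of all genes. Both were present in 27 (62.8%), against 7.97% of all genes. Of 42 distinct CHR matches in these windows, 33 began within 60 bases of a start site. Overlapping windows of 1 gene were counted once. A match is a description of letters and not evidence of binding. The windows below belong to the 5 most abundant genes that hold both motifs and rank among the 2 highest members of their role. Capitals mark TTTGAA and CCAAT or their reverse complements, and no base of these windows belongs to both motifs. Pttg1 follows, whose window holds neither, because it was the member not called in any comparison. This window lies wholly inside the gene as listed with the expression values (43420250 to 43426251, minus strand). It does not cover the listed start, so it does not show whether the motifs are present there. Pttg1 was chosen after its values were seen.
Ube2c, chr2:164769679-164769978, plus strand: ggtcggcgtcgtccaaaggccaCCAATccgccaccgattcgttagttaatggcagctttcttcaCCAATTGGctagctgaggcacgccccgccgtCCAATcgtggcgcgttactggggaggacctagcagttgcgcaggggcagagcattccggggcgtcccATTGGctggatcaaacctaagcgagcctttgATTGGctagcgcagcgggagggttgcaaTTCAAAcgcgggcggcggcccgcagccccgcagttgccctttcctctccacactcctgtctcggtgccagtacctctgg
Mki67, chr7:135716330-135716629, minus strand: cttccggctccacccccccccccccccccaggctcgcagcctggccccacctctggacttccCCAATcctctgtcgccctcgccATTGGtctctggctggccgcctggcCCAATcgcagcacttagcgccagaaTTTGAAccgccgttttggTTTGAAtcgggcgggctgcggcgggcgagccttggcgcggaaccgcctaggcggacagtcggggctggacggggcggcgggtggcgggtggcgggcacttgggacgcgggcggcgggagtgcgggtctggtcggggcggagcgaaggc
Plk1, chr7:122159185-122159484, plus strand: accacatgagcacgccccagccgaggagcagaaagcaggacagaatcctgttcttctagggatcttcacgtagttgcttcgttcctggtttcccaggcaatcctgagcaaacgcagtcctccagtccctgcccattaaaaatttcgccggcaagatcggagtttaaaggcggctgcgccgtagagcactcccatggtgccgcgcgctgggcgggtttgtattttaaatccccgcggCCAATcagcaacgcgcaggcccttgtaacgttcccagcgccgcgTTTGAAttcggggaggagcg
Ccnb2, chr9:70421505-70421804, minus strand: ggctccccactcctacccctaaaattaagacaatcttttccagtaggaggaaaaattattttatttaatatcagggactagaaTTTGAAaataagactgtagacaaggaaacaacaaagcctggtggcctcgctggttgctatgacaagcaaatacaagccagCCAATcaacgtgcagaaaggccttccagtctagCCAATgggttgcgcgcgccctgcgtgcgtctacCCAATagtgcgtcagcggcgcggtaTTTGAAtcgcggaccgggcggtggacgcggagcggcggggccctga
Top2a, chr11:99024140-99024439, minus strand: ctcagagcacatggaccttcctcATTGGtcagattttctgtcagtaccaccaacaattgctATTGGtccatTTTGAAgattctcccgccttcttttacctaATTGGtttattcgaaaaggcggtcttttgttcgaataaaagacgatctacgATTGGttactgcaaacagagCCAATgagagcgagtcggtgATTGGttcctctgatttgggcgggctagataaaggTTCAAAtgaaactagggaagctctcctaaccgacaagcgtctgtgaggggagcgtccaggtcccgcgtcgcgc
Pttg1, chr11:43425932-43426231, minus strand: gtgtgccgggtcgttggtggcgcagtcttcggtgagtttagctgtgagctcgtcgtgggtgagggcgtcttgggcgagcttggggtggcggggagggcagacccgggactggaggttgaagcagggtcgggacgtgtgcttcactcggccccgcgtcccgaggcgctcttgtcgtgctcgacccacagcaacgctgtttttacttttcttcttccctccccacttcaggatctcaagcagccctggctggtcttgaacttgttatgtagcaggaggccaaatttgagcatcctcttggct

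As a group, the mitotic genes were highest in ICH, lowest in sham and in between in ICH+P7C3-A20. Their summed level was 45.68, 96.55 and 84.41 FPKM in ICH+P7C3-A20 1, 2 and 3, 201.8, 180.7 and 218.3 FPKM in ICH and 26.52, 30.58 and 35.32 FPKM in sham. No library of one group overlapped another group in this sum. The median member averaged 0.970 FPKM in ICH+P7C3-A20, 2.84 FPKM in ICH and 0.291 FPKM in sham. Averages reached 1 FPKM for 25 members in ICH+P7C3-A20, 49 in ICH and 4 in sham. For 42 members every ICH+P7C3-A20 library lay above all sham libraries and below all ICH libraries, an order that 5.72% of all tested genes showed. The other 11 were Melk, Mad2l1, Ttk, Espl1, Pttg1, Cdca8, Cenpe, Nuf2, Aspm, Ect2 and Anln. ICH+P7C3-A20 2 and 3 were above all sham libraries for 51 members, and ICH+P7C3-A20 1 for 42.

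**Figure D1:**
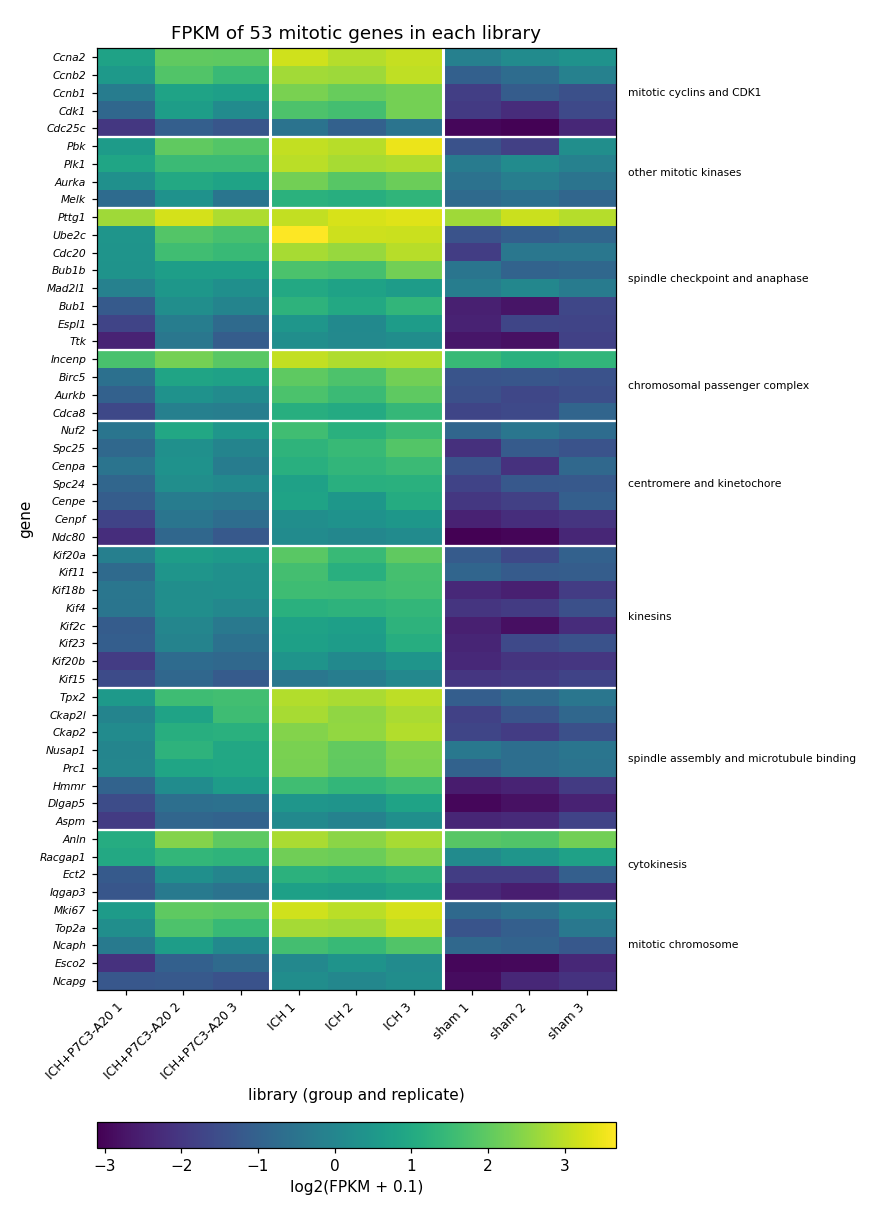
Level of each of the 53 mitotic genes (rows, grouped by role) in each of the 9 libraries (columns), coloured by log2(FPKM + 0.1). The ICH columns are the brightest for nearly all rows and the sham columns the darkest, while Pttg1, Incenp and Anln are bright in all 9 libraries.

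The genes of mitotic entry were separated by group almost throughout. Cdk1, the kinase itself (ENSMUSG00000019942, chromosome 10, 69335146 to 69352938, minus strand), had 0.457, 1.49 and 1.02 FPKM in ICH+P7C3-A20, 3.34, 3.05 and 4.68 FPKM in ICH and 0.158, 0.112 and 0.23 FPKM in sham. Ccnb1, its cyclin B1 partner, had 0.73, 1.66 and 1.55 FPKM in ICH+P7C3-A20, 4.87, 4.14 and 4.66 FPKM in ICH and 0.176, 0.353 and 0.263 FPKM in sham. In both genes the 3 groups did not overlap, and the ICH mean was 21.2-fold the sham mean for Cdk1 and 16.5-fold for Ccnb1 in the edgeR fit. Ccnb2, cyclin B2, had 1.35, 3.44 and 2.71 FPKM in ICH+P7C3-A20, 6.56, 6.35 and 8.03 FPKM in ICH and 0.387, 0.513 and 0.822 FPKM in sham. Ccna2, cyclin A2, which acts from S phase into mitosis, had 1.65, 3.97 and 3.85 FPKM in ICH+P7C3-A20, 8.94, 7.43 and 8.33 FPKM in ICH and 0.799, 1.02 and 1.17 FPKM in sham. Both again kept the 3 groups apart. Cdc25c, a phosphatase that removes inhibitory phosphates from CDK1, was scarcer, with 0.148, 0.38 and 0.311 FPKM in ICH+P7C3-A20, 0.600, 0.402 and 0.607 FPKM in ICH and 0.0266, 0.0193 and 0.0977 FPKM in sham. ICH+P7C3-A20 2 reached 0.380 FPKM for Cdc25c, close under the lowest ICH library at 0.402 FPKM. In counts of genes by role or list, here and below, rose, fell, higher and lower mean called at an edgeR adjusted p under 0.05. Of all tested genes 15.6% were called higher in ICH against sham. In ICH+P7C3-A20, 6.05% were called lower than in ICH and 4.58% higher than in sham. The 5 genes all rose in ICH against sham, 4 fell in ICH+P7C3-A20 against ICH, and 5 were higher in ICH+P7C3-A20 than in sham.

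Among the other mitotic kinases, Plk1, Polo-like kinase 1 (ENSMUSG00000030867, chromosome 7, 122159439 to 122169873, plus strand), had 1.75, 2.77 and 2.78 FPKM in ICH+P7C3-A20, 7.74, 6.79 and 7.18 FPKM in ICH and 0.721, 1.03 and 0.824 FPKM in sham. Aurka, Aurora A of the spindle poles, had 1.13, 1.87 and 1.67 FPKM in ICH+P7C3-A20, 4.55, 3.67 and 4.34 FPKM in ICH and 0.579, 0.765 and 0.614 FPKM in sham. Plk1 and Aurka varied little within groups, and neither showed any overlap between groups. Pbk, a kinase of mitotic and proliferating cells, was the most abundant of the 4 in ICH and had 1.44, 3.96 and 3.5 FPKM in ICH+P7C3-A20, 8.24, 7.57 and 11 FPKM in ICH and 0.279, 0.185 and 1.08 FPKM in sham. Sham 3 held most of the Pbk RNA found in sham. Melk, maternal embryonic leucine zipper kinase, had 0.502, 1.17 and 0.626 FPKM in ICH+P7C3-A20, 2.24, 2.13 and 2.41 FPKM in ICH and 0.491, 0.557 and 0.453 FPKM in sham. Melk was lower in every ICH+P7C3-A20 library than in ICH, and its value in replicate 1 of ICH+P7C3-A20 lay within the sham range. All 4 rose in ICH, 3 fell in ICH+P7C3-A20 against ICH (all but Pbk, log2 change -1.55 ± 0.50, edgeR adjusted p = 0.0826), and 3 were higher in ICH+P7C3-A20 than in sham (all but Melk).

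The spindle checkpoint and anaphase genes had the widest range of log2 changes in ICH against sham, 0.24 to 4.73. Ube2c, the ubiquitin-conjugating enzyme of the anaphase-promoting complex (ENSMUSG00000001403, chromosome 2, 164769898 to 164778822, plus strand), had 1.26, 3.52 and 3.16 FPKM in ICH+P7C3-A20, 12.6, 8.83 and 8.65 FPKM in ICH and 0.286, 0.37 and 0.438 FPKM in sham. Cdc20, the activator of that complex, had 1.22, 2.94 and 2.67 FPKM in ICH+P7C3-A20, 6.78, 6.05 and 7.54 FPKM in ICH and 0.175, 0.649 and 0.643 FPKM in sham. Ube2c had the highest mean of any member in ICH and was 26.6-fold above sham in the edgeR fit. Bub1, a checkpoint kinase, had 0.338, 1.08 and 0.871 FPKM in ICH+P7C3-A20, 2.3, 1.87 and 2.48 FPKM in ICH and 0.0767, 0.0524 and 0.217 FPKM in sham. Bub1b, which encodes BUBR1 of the mitotic checkpoint complex, had 1.21, 1.51 and 1.53 FPKM in ICH+P7C3-A20, 3.28, 3.11 and 4.58 FPKM in ICH and 0.622, 0.423 and 0.463 FPKM in sham. Ttk, the MPS1 kinase that starts checkpoint signalling, had 0.087, 0.645 and 0.367 FPKM in ICH+P7C3-A20, 1.08, 0.954 and 1.06 FPKM in ICH and 0.0537, 0.0434 and 0.19 FPKM in sham. In Ttk, ICH+P7C3-A20 1 lay below sham 3, and the ICH+P7C3-A20 libraries differed from each other more than in the other members. Mad2l1, which encodes the checkpoint protein MAD2, had 0.816, 1.3 and 1.11 FPKM in ICH+P7C3-A20, 1.86, 1.65 and 1.45 FPKM in ICH and 0.755, 0.931 and 0.719 FPKM in sham. Espl1, separase, the protease that cuts cohesin, had 0.203, 0.75 and 0.491 FPKM in ICH+P7C3-A20, 1.28, 0.976 and 1.47 FPKM in ICH and 0.0832, 0.211 and 0.206 FPKM in sham. Both overlapped between ICH+P7C3-A20 and sham, and neither overlapped between ICH+P7C3-A20 and ICH.

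Pttg1, securin, the inhibitor of separase (ENSMUSG00000020415, chromosome 11, 43420250 to 43426251, minus strand), was the exception among all 53. It had 6.42, 9.33 and 7.02 FPKM in ICH+P7C3-A20, 8.16, 9.41 and 10.1 FPKM in ICH and 6.4, 8.61 and 7.52 FPKM in sham. Its libraries overlapped in every pair of groups, and no comparison called it (log2 change 0.24 ± 0.14 in ICH against sham, edgeR adjusted p = 0.263; -0.24 ± 0.14 in ICH+P7C3-A20 against ICH, edgeR adjusted p = 0.359). It was also the most abundant member in sham, at 7.51 ± 1.11 FPKM (SD, n = 3), above Anln at 3.9 ± 0.604 and Incenp at 2.42 ± 0.235. Of the 8 genes of this role, 7 were called higher in ICH against sham, 3 were called lower in ICH+P7C3-A20 against ICH (Bub1b, Cdc20 and Ube2c), and 4 were called higher in ICH+P7C3-A20 than in sham (those 3 and Bub1). Bub1, Ttk, Espl1 and Mad2l1 also had negative log2 changes in ICH+P7C3-A20 against ICH (-1.50, -1.49, -1.33 and -0.58) that were not called.

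The chromosomal passenger complex corrects faulty attachments and later steers cytokinesis. Aurkb, its kinase Aurora B, had 0.401, 1.17 and 1.02 FPKM in ICH+P7C3-A20, 3.27, 2.78 and 3.85 FPKM in ICH and 0.266, 0.214 and 0.26 FPKM in sham. Birc5, its subunit survivin, had 0.555, 1.71 and 1.6 FPKM in ICH+P7C3-A20, 3.85, 3.33 and 4.6 FPKM in ICH and 0.291, 0.305 and 0.281 FPKM in sham. Cdca8, its subunit borealin, had 0.224, 0.803 and 0.765 FPKM in ICH+P7C3-A20, 2.12, 1.96 and 2.58 FPKM in ICH and 0.211, 0.227 and 0.436 FPKM in sham. These 3 were scarce in sham, and Cdca8 of ICH+P7C3-A20 1 lay within the sham range. Incenp, the scaffold of the complex, had 3.21, 4.71 and 3.71 FPKM in ICH+P7C3-A20, 8.24, 7.19 and 7.27 FPKM in ICH and 2.64, 2.17 and 2.46 FPKM in sham. Incenp was well above the others in sham and changed least of the 4, with means of 3.87 ± 0.766 FPKM in ICH+P7C3-A20, 7.57 ± 0.588 FPKM in ICH and 2.42 ± 0.235 FPKM in sham (SD, n = 3 each). All 4 rose in ICH, all 4 fell in ICH+P7C3-A20 against ICH, and all but Cdca8 were higher in ICH+P7C3-A20 than in sham.

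At the centromere and kinetochore, Cenpa, the histone H3 variant that marks centromeres, had 0.612, 1.17 and 0.73 FPKM in ICH+P7C3-A20, 2.17, 2.46 and 2.76 FPKM in ICH and 0.284, 0.126 and 0.466 FPKM in sham. Cenpe, a kinetochore motor, had 0.362, 0.735 and 0.676 FPKM in ICH+P7C3-A20, 1.66, 1.3 and 1.98 FPKM in ICH and 0.149, 0.182 and 0.385 FPKM in sham. Cenpf, a large kinetochore and nuclear matrix protein, had 0.202, 0.625 and 0.529 FPKM in ICH+P7C3-A20, 1.09, 1.17 and 1.3 FPKM in ICH and 0.0832, 0.114 and 0.141 FPKM in sham. All 3 were separated between ICH and both other groups, while Cenpe of ICH+P7C3-A20 1 lay below sham 3. The NDC80 complex, which grips microtubules, is made by Ndc80, Nuf2, Spc24 and Spc25. Ndc80 had 0.115, 0.459 and 0.332 FPKM in ICH+P7C3-A20, 1.02, 0.92 and 1.02 FPKM in ICH and 0.0163, 0.0232 and 0.0943 FPKM in sham. Nuf2 had 0.626, 1.86 and 1.27 FPKM in ICH+P7C3-A20, 2.91, 2.19 and 2.77 FPKM in ICH and 0.452, 0.632 and 0.514 FPKM in sham. Spc24 had 0.449, 1.09 and 0.984 FPKM in ICH+P7C3-A20, 1.61, 2.13 and 2.19 FPKM in ICH and 0.199, 0.327 and 0.333 FPKM in sham. Spc25 had 0.469, 1.12 and 0.876 FPKM in ICH+P7C3-A20, 2.35, 2.66 and 3.5 FPKM in ICH and 0.124, 0.348 and 0.286 FPKM in sham. The 4 partners had unlike sham levels, from 0.0446 FPKM on average for Ndc80 to 0.533 ± 0.0914 FPKM for Nuf2 (SD, n = 3). Their log2 changes in ICH against sham ran from 2.24 ± 0.29 for Nuf2 to 4.39 ± 0.60 for Ndc80. All 7 genes rose in ICH, 6 fell in ICH+P7C3-A20 against ICH (all but Ndc80, edgeR adjusted p = 0.0727), and all 7 were higher in ICH+P7C3-A20 than in sham.

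The kinesins moved together. Kif11, which pushes the spindle poles apart, had 0.485, 1.24 and 1.12 FPKM in ICH+P7C3-A20, 3.04, 2.14 and 3.08 FPKM in ICH and 0.438, 0.347 and 0.365 FPKM in sham. Kif15, which can share that task, had 0.24, 0.46 and 0.349 FPKM in ICH+P7C3-A20, 0.655, 0.755 and 0.94 FPKM in ICH and 0.146, 0.16 and 0.198 FPKM in sham. Kif20a, a cytokinesis motor, had 0.777, 1.48 and 1.38 FPKM in ICH+P7C3-A20, 3.76, 2.63 and 3.92 FPKM in ICH and 0.351, 0.221 and 0.397 FPKM in sham. In each of these the 3 groups were separate. Kif20b, its relative, had 0.168, 0.503 and 0.465 FPKM in ICH+P7C3-A20, 1.22, 0.977 and 1.25 FPKM in ICH and 0.101, 0.136 and 0.143 FPKM in sham. Kif23, the motor of the centralspindlin complex, had 0.37, 0.857 and 0.57 FPKM in ICH+P7C3-A20, 1.58, 1.47 and 2.08 FPKM in ICH and 0.0903, 0.226 and 0.279 FPKM in sham. Kif4, a motor bound to chromosomes, had 0.625, 1.08 and 0.948 FPKM in ICH+P7C3-A20, 2.18, 2.33 and 2.5 FPKM in ICH and 0.139, 0.164 and 0.263 FPKM in sham. Again no library crossed into another group. Kif2c and Kif18b, which act on microtubule ends, were the scarcest kinesins in sham. Kif2c had 0.353, 0.909 and 0.673 FPKM in ICH+P7C3-A20, 1.63, 1.56 and 2.34 FPKM in ICH and 0.0769, 0.0415 and 0.11 FPKM in sham. Kif18b had 0.633, 1.09 and 1.1 FPKM in ICH+P7C3-A20, 2.85, 2.82 and 2.96 FPKM in ICH and 0.0983, 0.0745 and 0.166 FPKM in sham. Kif18b was 24.4-fold higher in ICH than in sham in the edgeR fit and still 8.28-fold higher in ICH+P7C3-A20 than in sham. All 8 kinesins rose in ICH, all 8 fell in ICH+P7C3-A20 against ICH, by between 1.11 and 1.56 on the log2 scale, and all 8 were higher in ICH+P7C3-A20 than in sham.

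The spindle assembly proteins held the highest log2 changes. Ckap2, a spindle microtubule protein, had 1.02, 2.12 and 2.18 FPKM in ICH+P7C3-A20, 5.25, 5.83 and 7.33 FPKM in ICH and 0.212, 0.17 and 0.269 FPKM in sham. Ckap2l, its relative known from neural progenitors, had 0.868, 1.68 and 2.87 FPKM in ICH+P7C3-A20, 6.84, 5.77 and 6.88 FPKM in ICH and 0.189, 0.293 and 0.463 FPKM in sham. Hmmr, a hyaluronan receptor that also works at spindle poles, had 0.414, 1.03 and 1.46 FPKM in ICH+P7C3-A20, 2.93, 2.52 and 2.86 FPKM in ICH and 0.0677, 0.0865 and 0.162 FPKM in sham. In these 3 the lowest ICH library was several times the highest sham library. Ckap2, Ube2c and Hmmr were the 3 members with the largest rise in ICH against sham (log2 changes 4.75 ± 0.29, 4.73 ± 0.35 and 4.67 ± 0.45). Dlgap5, which stabilises kinetochore fibres, had 0.248, 0.543 and 0.574 FPKM in ICH+P7C3-A20, 1.26, 1.22 and 1.66 FPKM in ICH and 0.0272, 0.0445 and 0.0814 FPKM in sham. Tpx2, the activator of Aurora A, had 1.35, 2.87 and 2.97 FPKM in ICH+P7C3-A20, 7.35, 6.89 and 7.81 FPKM in ICH and 0.373, 0.48 and 0.634 FPKM in sham. Nusap1, which bundles spindle microtubules, had 0.884, 2.33 and 1.85 FPKM in ICH+P7C3-A20, 4.84, 4.06 and 5.17 FPKM in ICH and 0.664, 0.534 and 0.626 FPKM in sham. All 3 groups were separate in each. Prc1, which crosslinks the midzone of the spindle, had 0.903, 1.75 and 1.82 FPKM in ICH+P7C3-A20, 4.75, 3.91 and 4.96 FPKM in ICH and 0.407, 0.537 and 0.594 FPKM in sham. Aspm, a spindle pole protein named for microcephaly, had 0.166, 0.446 and 0.415 FPKM in ICH+P7C3-A20, 0.978, 0.83 and 1.1 FPKM in ICH and 0.0927, 0.104 and 0.198 FPKM in sham. Aspm of ICH+P7C3-A20 1 was below sham 3, and Prc1 kept the groups apart. All 8 genes rose in ICH, all 8 fell in ICH+P7C3-A20 against ICH, and all 8 were higher in ICH+P7C3-A20 than in sham.

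Of the cytokinesis genes, Racgap1, the GTPase-activating subunit of centralspindlin, had 1.88, 2.49 and 2.37 FPKM in ICH+P7C3-A20, 4.51, 4.34 and 5.21 FPKM in ICH and 1.01, 1.24 and 1.61 FPKM in sham. Ect2, the exchange factor that activates RhoA at the furrow, had 0.34, 1.1 and 0.89 FPKM in ICH+P7C3-A20, 2.27, 2.1 and 2.36 FPKM in ICH and 0.175, 0.175 and 0.383 FPKM in sham. Iqgap3, a scaffold of dividing cells, had 0.309, 0.684 and 0.597 FPKM in ICH+P7C3-A20, 1.59, 1.5 and 1.69 FPKM in ICH and 0.0983, 0.0733 and 0.107 FPKM in sham. Racgap1 and Iqgap3 kept the 3 groups apart, and Ect2 of ICH+P7C3-A20 1 lay below sham 3. Anln, anillin, a scaffold of the cleavage furrow that is also found in myelin, had 2.05, 5.26 and 3.9 FPKM in ICH+P7C3-A20, 6.92, 5.56 and 6.84 FPKM in ICH and 3.67, 3.44 and 4.58 FPKM in sham. Anln of ICH+P7C3-A20 1 was below every sham library, and that of ICH+P7C3-A20 2 was above every sham library and below every ICH library. All 4 were called higher in ICH than in sham, Anln with the weakest support (log2 change 0.68 ± 0.22, edgeR adjusted p = 0.0428). Leaving out any 1 of the 6 ICH and sham libraries ended that call (edgeR adjusted p 0.0664 to 0.127). Racgap1, Ect2 and Iqgap3 fell in ICH+P7C3-A20 against ICH and were higher in ICH+P7C3-A20 than in sham. For Anln the log2 change in ICH+P7C3-A20 against ICH was -0.76 ± 0.22 (edgeR adjusted p = 0.057). It passed the threshold without ICH+P7C3-A20 2 (log2 change -0.96, edgeR adjusted p = 0.0305) and without ICH+P7C3-A20 1 (-0.50, edgeR adjusted p = 0.0473), and in none of the other 4 fits with 1 library left out.

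Genes of the mitotic chromosome include Mki67, the coat protein used as the standard marker of dividing cells (ENSMUSG00000031004, chromosome 7, 135689784 to 135716361, minus strand). Mki67 had 1.43, 3.87 and 3.76 FPKM in ICH+P7C3-A20, 9.02, 7.78 and 9.29 FPKM in ICH and 0.478, 0.585 and 0.859 FPKM in sham. Its means were 3.02 ± 1.38 FPKM in ICH+P7C3-A20, 8.7 ± 0.805 FPKM in ICH and 0.641 ± 0.197 FPKM in sham (SD, n = 3 each). The SD of ICH+P7C3-A20 was the largest of the 3, since replicate 1 was low. Top2a, topoisomerase II alpha, which untangles sister chromatids, had 1.09, 3.31 and 2.66 FPKM in ICH+P7C3-A20, 6.64, 6.44 and 8.17 FPKM in ICH and 0.296, 0.382 and 0.657 FPKM in sham. Ncapg and Ncaph, subunits of condensin I, differed in their spread between the ICH+P7C3-A20 mice. Ncapg had 0.319, 0.33 and 0.282 FPKM in ICH+P7C3-A20, 1.05, 0.925 and 1.07 FPKM in ICH and 0.037, 0.0949 and 0.132 FPKM in sham. Ncaph had 0.700, 1.5 and 0.976 FPKM in ICH+P7C3-A20, 3.03, 2.68 and 3.45 FPKM in ICH and 0.471, 0.417 and 0.321 FPKM in sham. The 3 ICH+P7C3-A20 values of Ncapg lay close together, and ICH+P7C3-A20 3 was its lowest, the single member for which replicate 1 was not the lowest of that group. Esco2, the acetyltransferase that locks cohesin during S phase, had 0.129, 0.388 and 0.492 FPKM in ICH+P7C3-A20, 0.937, 1.19 and 1.03 FPKM in ICH and 0.0259, 0.029 and 0.0972 FPKM in sham. All 5 rose in ICH, 4 fell in ICH+P7C3-A20 against ICH (all but Esco2, log2 change -1.59 ± 0.48, edgeR adjusted p = 0.0653), and all 5 were higher in ICH+P7C3-A20 than in sham.

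**Figure D2:**
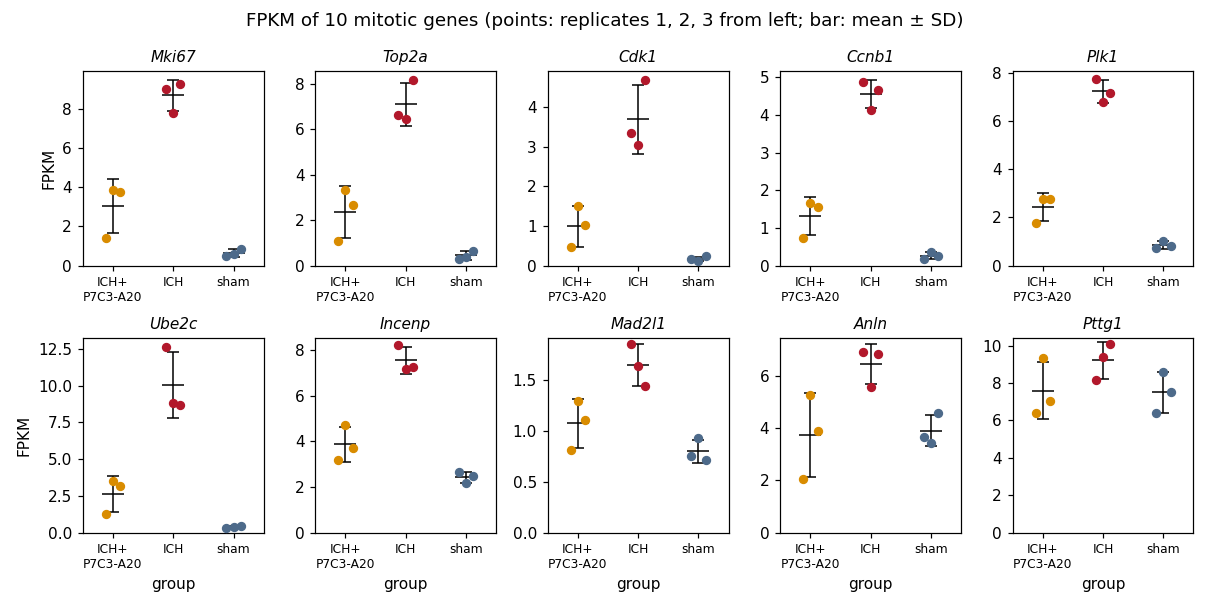
FPKM of 10 mitotic genes by group, with each of the 3 libraries as a point (replicates 1, 2 and 3 from left) and the mean ± SD as bars. Mki67, Top2a, Cdk1, Ccnb1, Plk1 and Ube2c keep the 3 groups apart, while the groups overlap for Pttg1 and the ICH+P7C3-A20 and sham groups overlap for Anln and Mad2l1.

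Comparing ICH with sham asked how haemorrhage changed the brain's transcripts. A gene was called where edgeR's quasi-likelihood test gave a Benjamini-Hochberg adjusted p under 0.05 over all 21900 genes, two-sided. Of the 53 members, 52 were called higher and 0 lower, where 15.6% of all tested genes were called higher. Pttg1 was the member not called. For the same 52 the lowest ICH library was above the highest sham library, which held for 23.0% of all tested genes. Of the called members 50 changed at least 2-fold. The median log2 change of the members was 3.33, against 0.00 for all tested genes, with a range of 0.24 to 4.75. Pttg1, Anln and Mad2l1 had the 3 smallest changes (0.24 ± 0.14, 0.68 ± 0.22 and 0.99 ± 0.20; edgeR adjusted p = 0.263, 0.0428 and 0.00427). Mki67 was at 3.73 ± 0.32 (edgeR adjusted p = 2.69e-05) and Cdk1 at 4.40 ± 0.38 (edgeR adjusted p = 2.12e-05). By median log2 change the roles ran from 2.48 for cytokinesis to 4.08 for spindle assembly, with 2.81 for the kinases other than CDK1, 3.03 for the kinetochore, 3.12 for checkpoint and anaphase, 3.21 for kinesins, 3.27 for the passenger complex, 3.56 for cyclins and CDK1 and 3.73 for the mitotic chromosome. DESeq2 also called 52, and 17.3% of all genes to which it gave an adjusted p were called higher. Sham 3 was the highest sham library for 36 members, and without it the fold itself, though not the log2 change, was over 1.5 times as large for 6 members. Their log2 changes without it were 4.07 for Cdc25c, 5.10 for Pbk, 4.90 for Bub1, 4.25 for Ttk, 5.41 for Ndc80 and 5.05 for Esco2, against 3.27 ± 0.51, 4.09 ± 0.56, 4.19 ± 0.50, 3.40 ± 0.65, 4.39 ± 0.60 and 4.33 ± 0.55 with all libraries.

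Comparing ICH+P7C3-A20 with ICH asked what the compound changed after haemorrhage. This comparison shares the ICH libraries with that of ICH and sham, so the same high or low ICH value enters both with opposite sign. Of the 53 members, 43 were called lower and 0 higher, where 6.05% of all tested genes were called lower and 2.69% higher. DESeq2 called 50 lower, and 12% of all genes to which it gave an adjusted p. The median log2 change was -1.49, against -0.01 for all tested genes, with a range of -1.90 to -0.24. For 52 members every ICH+P7C3-A20 library was below every ICH library, which held for 16.4% of all tested genes. The mean in ICH+P7C3-A20 was 26.2% to 82.3% of the ICH mean, with a median of 34.6%, and for 48 members it was under 50%. Among those called were Mki67 (log2 change -1.49 ± 0.29, edgeR adjusted p = 0.0146), Plk1 (-1.52 ± 0.21, edgeR adjusted p = 0.00636) and Ube2c (-1.90 ± 0.31, edgeR adjusted p = 0.00764), the member with the largest fall. The members that were not called were Anln, Bub1, Cdc25c, Esco2, Espl1, Mad2l1, Ndc80, Pbk, Pttg1 and Ttk. Bub1, Esco2, Ndc80, Pbk and Ttk among these had log2 changes of -1.49 to -1.67 with errors of 0.44 to 0.59. Their changes were thus as large as those of many called members, and their errors were larger. These errors rest on a spread estimated from all 9 libraries, sham included. In a fit of the compared groups alone 47 members were called, Bub1, Esco2, Ndc80 and Pbk among them, and Ttk was still not called. No share of all tested genes is given for that fit.

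The count of 43 changed when single libraries were left out. Without ICH+P7C3-A20 1, the library that stood apart, 33 members and 3.01% of all tested genes were called lower, and the median log2 change of the members was -1.23. Without ICH+P7C3-A20 2 or 3, 41 and 39 were called, while 5.36% and 4.83% of all tested genes were called lower. Without ICH 1, 2 or 3, 23, 22 and 21 were called, while 2.63%, 2.05% and 2.62% of all tested genes were called lower. All 53 members kept a negative log2 change in each of these 6 fits. The 21 members that stayed called in every one were Ccna2, Ccnb1, Cdk1, Plk1, Aurka, Melk, Bub1b, Ube2c, Aurkb, Incenp, Kif11, Kif18b, Kif20a, Kif4, Tpx2, Nusap1, Prc1, Ckap2, Racgap1, Iqgap3 and Ncaph. Mki67 lost the call without ICH 1 and ICH 3 (highest edgeR adjusted p 0.0524) and Top2a without any 1 ICH library (highest edgeR adjusted p 0.0661). Cdc20 and Spc24 lost it without any 1 of the 6 libraries (highest edgeR adjusted p 0.130 and 0.150). ICH+P7C3-A20 3 alone moved the fold of Ckap2l by over 1.5 times (log2 change -1.78 ± 0.38 with all libraries and -2.37 without that one).

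**Figure D3:**
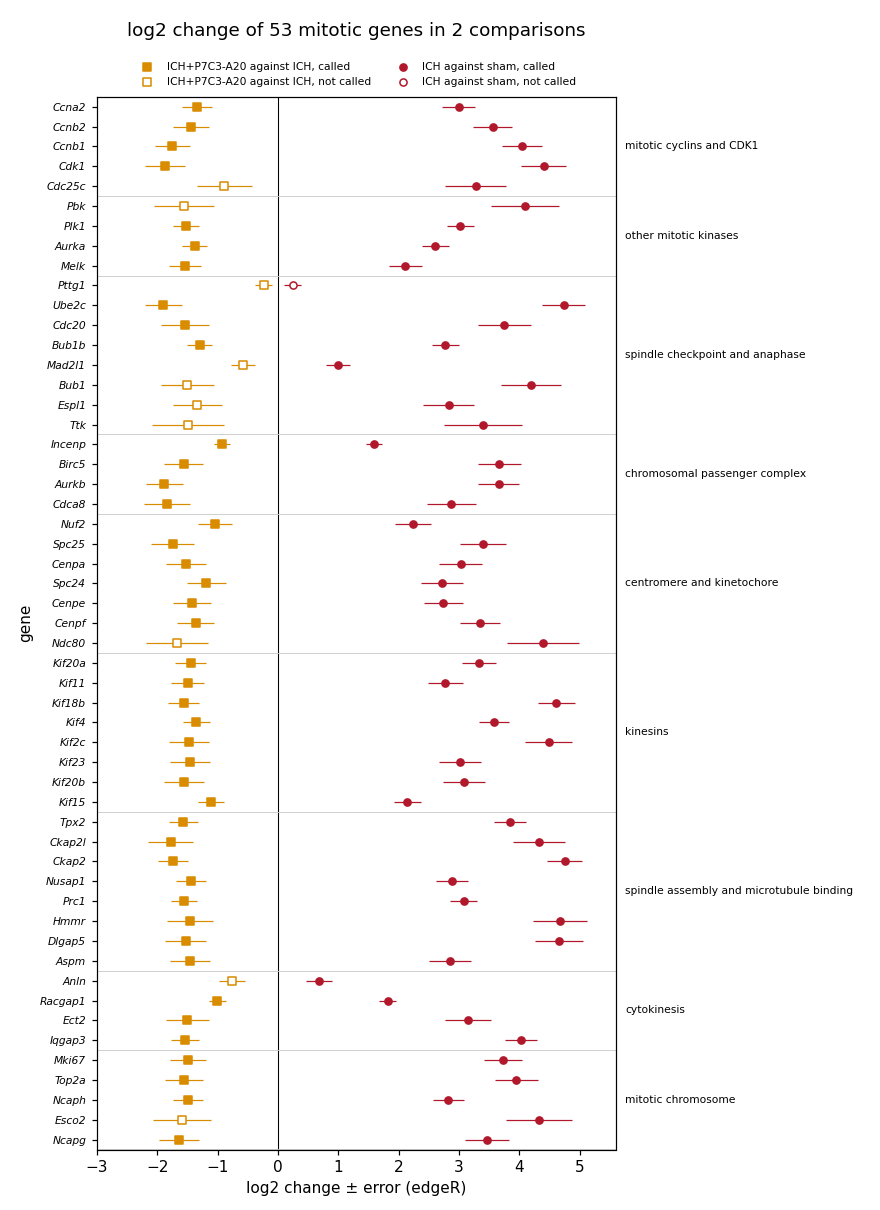
log2 change with its error from edgeR for each of the 53 mitotic genes, as squares for ICH+P7C3-A20 against ICH and circles for ICH against sham, with open symbols for genes not called. All circles lie right of 0 and all squares left of 0, and Pttg1, Mad2l1 and Anln lie nearest to 0 in both.

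Comparing ICH+P7C3-A20 with sham asked how far the treated haemorrhage brains stood from the control brains. Of the 53 members, 46 were called higher and 0 lower, where 4.58% of all tested genes were called higher and 0.744% lower. DESeq2 called 48 higher, and 7.12% of all genes to which it gave an adjusted p. This comparison shares its libraries with both others. For 42 members every ICH+P7C3-A20 library was above every sham library, which held for 10.7% of all tested genes, and for 0 every one was below, which held for 5.39%. The median log2 change was 1.78, against 0.03 for all tested genes, with a range of -0.08 to 3.21. Hmmr (3.21 ± 0.43), Dlgap5 (3.13 ± 0.38) and Kif18b (3.05 ± 0.29) were at the top of that range (edgeR adjusted p = 0.00201, 0.00116 and 0.000414). Mki67 was at 2.24 ± 0.30 (edgeR adjusted p = 0.00248). The members that were not called were Anln, Cdca8, Espl1, Mad2l1, Melk, Pttg1 and Ttk. Without ICH+P7C3-A20 1, 2 or 3 the count was 49, 31 and 29, while 5.48%, 3.08% and 2.19% of all tested genes were called higher. Without sham 1, 2 or 3 it was 32, 34 and 44, while 2.68%, 3.22% and 4.55% of all tested genes were. With the 6 compared libraries alone it was 22, and 1.89% of all tested genes were called higher. Without sham 3 the fold was over 1.5 times as large for the same 6 members as in ICH, with log2 changes of 3.18 for Cdc25c, 3.55 for Pbk, 3.41 for Bub1, 2.76 for Ttk, 3.74 for Ndc80 and 3.45 for Esco2, against 2.38 ± 0.50, 2.54 ± 0.53, 2.69 ± 0.48, 1.91 ± 0.62, 2.72 ± 0.57 and 2.73 ± 0.53 with all libraries. Without ICH+P7C3-A20 3 the log2 change of Ckap2l was 1.96, against 2.55 ± 0.41 with it.

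The spread between mice differed by group. The median coefficient of variation over the members was 42.3% in ICH+P7C3-A20, 12.6% in ICH and 30.7% in sham, against 21.1%, 15.0% and 20.7% over all tested genes above 0 in those groups. Within a group the same library was often high or low for many members. ICH+P7C3-A20 2 was the highest of its group for 43 members. ICH 2 was the lowest of its group for 42 and ICH 3 the highest for 41. Sham 1 was the lowest of its group for 32 and sham 3 the highest for 36.

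Members with and without a CHR match in the promoter window overlapped widely in their values. The 33 with TTTGAA had median log2 changes of -1.50 in ICH+P7C3-A20 against ICH and 3.40 in ICH against sham, and the 10 without had -1.46 and 2.78. Ccnb1, Bub1, Birc5 and Cenpe were among the 10 without these letters, and their changes in ICH against sham ran from 2.74 ± 0.33 for Cenpe to 4.19 ± 0.50 for Bub1. The windows of Pttg1 and Mad2l1, with 2 of the 3 smallest changes, held neither motif, while that of Anln held TTTGAA and no CCAAT. The Pttg1 window lay wholly inside the gene as listed with the expression values, and so did those of Kif2c, Cdca8 and Kif4. Kif2c, Cdca8 and Kif4 were counted among the genes with TTTGAA, though their windows do not cover the listed start. The Mad2l1 window ended at 66535270, before the listed gene start at 66535390. For Pttg1 and Mad2l1 the missing letters therefore do not describe the sequence at the start of the gene measured. No test was made of the difference between members with and without a match.

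Other genes of cell division were read from lists by role. None of the 15 genes of the anaphase-promoting complex and its coactivator Fzr1, the machine that CDC20 and UBE2C serve, was called by edgeR in any comparison. In ICH against sham 2 had an unadjusted p under 0.05 and DESeq2 called 2, and in the other comparisons both counts were 0. Their log2 changes stayed between -0.29 and 0.12 in ICH+P7C3-A20 against ICH and between -0.08 and 0.48 in ICH against sham. The genes with the smallest p in ICH against sham were Anapc15 (log2 change 0.36 ± 0.13, edgeR adjusted p = 0.0554), Anapc13 (0.48 ± 0.18, edgeR adjusted p = 0.0724) and Cdc16 (0.15 ± 0.08, edgeR adjusted p = 0.228).

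The remaining lists moved like the members to different extents. Of 38 other centromere, kinetochore and checkpoint genes, 10 fell and 0 rose in ICH+P7C3-A20 against ICH, and 30 rose and 1 fell in ICH against sham. Among these were Knstrn, a kinetochore adaptor (log2 change -1.61 ± 0.26 in ICH+P7C3-A20 against ICH and 3.49 ± 0.28 in ICH against sham), and Kntc1 (-1.15 ± 0.28 and 3.12 ± 0.31). Of 9 other mitotic kinases and phosphatases, 3 fell in ICH+P7C3-A20 against ICH and 7 rose in ICH against sham. Plk4, which starts centriole duplication, was at -0.79 ± 0.18 and 1.16 ± 0.18 in those comparisons, Mastl, which restrains the phosphatase PP2A, at -1.38 ± 0.34 and 2.26 ± 0.36, and Pkmyt1, which inhibits CDK1, at -0.72 ± 0.21 (not called) and 1.31 ± 0.22. Of 19 other kinesins and spindle genes, 8 fell in ICH+P7C3-A20 against ICH and 13 rose in ICH against sham. Tacc3, a spindle protein, was at -1.20 ± 0.15 and 2.14 ± 0.16, Spag5 at -0.52 ± 0.16 (not called) and 1.81 ± 0.17, and the motor Kifc1 at -1.64 ± 0.27 and 2.89 ± 0.29.

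Cohesin and condensin split, with 4 of 16 lower and 0 higher in ICH+P7C3-A20 against ICH and 6 higher and 1 lower in ICH against sham. The condensin subunits Smc2 (-0.82 ± 0.12 and 1.42 ± 0.12), Ncapd2 (-0.69 ± 0.10 and 1.08 ± 0.10) and Smc4 (-1.18 ± 0.21 and 2.08 ± 0.22) had the smallest p. Of 20 cell cycle transcription factors, 4 fell in ICH+P7C3-A20 against ICH, while 10 rose and 1 fell in ICH against sham. Foxm1, an activator of G2 and M genes, led them (-1.52 ± 0.28 and 3.46 ± 0.30), with Mybl2, which encodes B-MYB (-0.90 ± 0.22 and 1.89 ± 0.23), and the pocket protein gene Rbl1 (-1.23 ± 0.29 and 2.27 ± 0.30). Foxm1 had 0.764, 1.93 and 1.74 FPKM in ICH+P7C3-A20, 4.64, 3.73 and 4.71 FPKM in ICH and 0.334, 0.284 and 0.529 FPKM in sham, so its groups did not overlap.

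Most genes of the earlier cell cycle were also higher in ICH. All 19 DNA replication genes rose in ICH against sham and 11 fell in ICH+P7C3-A20 against ICH, Rrm2, a ribonucleotide reductase subunit, by 1.65 ± 0.32 and Mcm6 of the replicative helicase by 1.21 ± 0.17 on the log2 scale, and Rrm1 by 1.04 ± 0.16. Of 8 cyclins and CDKs of G1, 5 fell in ICH+P7C3-A20 against ICH and 6 rose in ICH against sham, among them Ccnd1 (-1.33 ± 0.15 and 2.59 ± 0.16), Cdk2 (-1.19 ± 0.19 and 2.35 ± 0.19) and Cdk6 (-0.74 ± 0.18 and 1.70 ± 0.18). Of 8 CDK inhibitors, which oppose division, 2 fell in ICH+P7C3-A20 against ICH and 3 rose in ICH against sham. Cdkn1a, which encodes p21, was at -1.07 ± 0.13 and 1.87 ± 0.13, Cdkn2c, which encodes p18, at -1.38 ± 0.28 and 3.58 ± 0.31, and Cdkn3, a phosphatase of CDKs, at -1.40 ± 0.52 (not called) and 2.60 ± 0.55. Calls of higher genes in ICH+P7C3-A20 against sham were 7 of 38 centromere and kinetochore genes, 1 of 9 kinases, 5 of 19 spindle genes, 2 of 16 cohesin and condensin genes, 3 of 20 transcription factors, 4 of 8 G1 genes, 2 of 8 inhibitors and 6 of 19 replication genes. Over all 9 lists 47 genes were called in ICH+P7C3-A20 against ICH, 27 without ICH+P7C3-A20 1 and 18, 16 and 17 without ICH 1, 2 and 3. The share of all tested genes called in either direction was 3.58% without ICH+P7C3-A20 1. It was 3.01%, 2.52% and 2.97% without ICH 1, 2 and 3, against 6.05% called lower and 2.69% higher with all libraries. Against sham, 30 were called in ICH+P7C3-A20, 47, 18 and 14 without ICH+P7C3-A20 1, 2 and 3 and 17 without sham 1. The shares of all tested genes in those 4 fits were 6.31%, 3.42%, 2.37% and 2.88%, against 4.58% higher and 0.744% lower with all libraries.

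**Figure D4:**
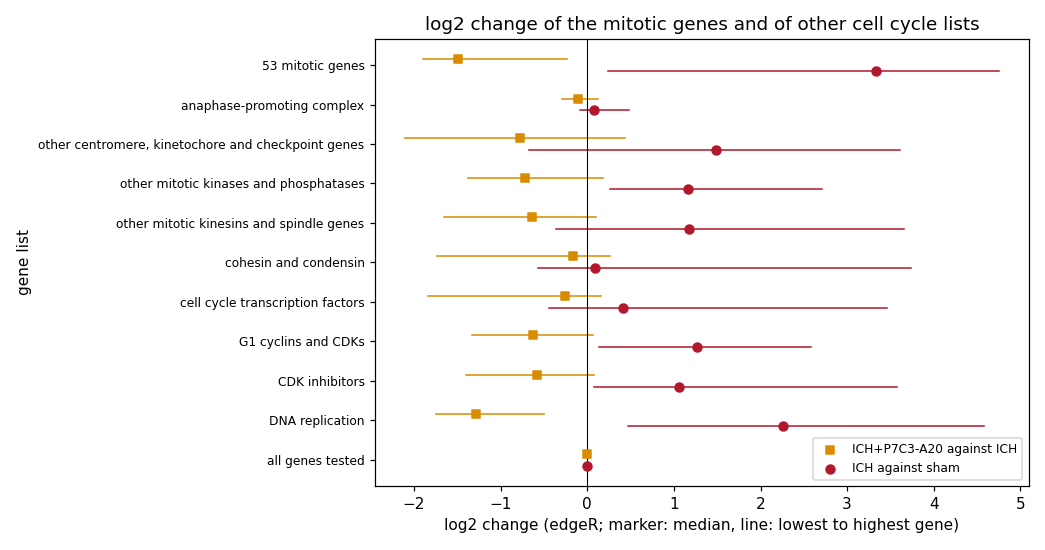
Median log2 change (marker) and range from lowest to highest gene (line) of the 53 mitotic genes and of 9 other cell division lists, as squares for ICH+P7C3-A20 against ICH and circles for ICH against sham. The mitotic genes have the medians farthest from 0 in both, -1.49 and 3.33, and the anaphase-promoting complex lies at -0.11 and 0.08; for all genes tested the median alone is drawn.

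Markers of cell types that divide or enter the brain after injury moved beside the mitotic genes. Summed over 7 monocyte and macrophage markers, FPKM ranged from 64.75 to 137.2 in ICH+P7C3-A20, 325.9 to 378.8 in ICH and 14.12 to 15.15 in sham. All 7 fell in ICH+P7C3-A20 against ICH and rose in ICH against sham, among them Lyz2 (-1.99 ± 0.26 and 5.21 ± 0.30), Arg1 (-2.11 ± 0.33 and 7.21 ± 0.44) and Msr1 (-1.75 ± 0.32 and 7.46 ± 0.45). Over 7 microglia markers the sum ranged from 136.2 to 233.2 in ICH+P7C3-A20, 357.4 to 426.8 in ICH and 74.57 to 105.3 in sham. Of these, 4 fell in ICH+P7C3-A20 against ICH and all 7 rose in ICH against sham, among them Fcrls (-1.38 ± 0.22 and 3.72 ± 0.24) and Cx3cr1 (-0.88 ± 0.16 and 2.04 ± 0.16). Over 5 astrocyte markers the sum ranged from 278.7 to 446.7 in ICH+P7C3-A20, 807.0 to 918.8 in ICH and 135.4 to 150.5 in sham, with 3 lower in ICH+P7C3-A20 against ICH and 5 higher in ICH against sham (Gfap -1.39 ± 0.25 and 4.66 ± 0.28, Aqp4 -0.96 ± 0.18 and 1.72 ± 0.18, Aldh1l1 -0.83 ± 0.19 and 1.60 ± 0.19). In all 3 lists ICH+P7C3-A20 1 had the lowest sum of its group, as it did for the mitotic genes. Of the lists below, it was also lowest for endothelial, oligodendrocyte precursor, pericyte, neutrophil and lymphocyte markers. For erythroid, fibroblast and neuron markers it was the highest of its group, and for neural progenitors it lay in between.

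Endothelial markers summed to 23.51 to 38.41 FPKM in ICH+P7C3-A20, 52.54 to 67.18 in ICH and 15.62 to 25.15 in sham, with 3 of 5 lower in ICH+P7C3-A20 against ICH and 5 higher in ICH against sham (Pecam1 -0.77 ± 0.16 and 1.59 ± 0.16, Cdh5 -0.81 ± 0.19 and 1.77 ± 0.19, Kdr -0.62 ± 0.19, not called, and 1.32 ± 0.19). Oligodendrocyte precursor markers summed to 64.01 to 112.0 FPKM in ICH+P7C3-A20, 134.6 to 136.8 in ICH and 68.45 to 85.68 in sham. Of these 5, 1 fell in ICH+P7C3-A20 against ICH (Cspg4, -0.71 ± 0.12) and 5 rose in ICH against sham (Cspg4 1.12 ± 0.12, Olig2 0.90 ± 0.15, Pdgfra 0.52 ± 0.09). Neural progenitor and neuroblast markers, of cells among those known to divide in the uninjured adult brain, summed to 20.65 to 29.40 FPKM in ICH+P7C3-A20, 22.70 to 30.38 in ICH and 18.85 to 20.39 in sham. Of these 6, Sox2 rose in ICH against sham (0.54 ± 0.13) and Dcx was higher in ICH+P7C3-A20 than in ICH (0.70 ± 0.14). No other was called by edgeR in these 2 comparisons. The list did not move together in ICH against sham, with a median log2 change of -0.23 and a range of -3.16 to 0.54. DESeq2 called 3 of the 6 in that comparison. Pericyte markers ranged from 31.82 to 44.05 FPKM in ICH+P7C3-A20, 49.13 to 49.89 in ICH and 26.58 to 31.10 in sham, with 2 of 4 higher in ICH against sham (Pdgfrb 0.73 ± 0.11, Rgs5 0.78 ± 0.13). Fibroblast markers ranged from 6.00 to 8.47 FPKM in ICH+P7C3-A20, 7.94 to 10.9 in ICH and 1.95 to 4.75 in sham, with 3 of 4 higher in ICH against sham.

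Neutrophil markers summed to 5.59 to 9.54 FPKM in ICH+P7C3-A20, 11.2 to 19.0 in ICH and 1.96 to 2.66 in sham, with 3 of 4 tested genes higher in ICH against sham and Csf3r lower in ICH+P7C3-A20 against ICH (-0.98 ± 0.24). Their defining gene Ly6g was at 0 in ICH and sham. Lymphocyte markers summed to 5.20 to 9.07 FPKM in ICH+P7C3-A20, 8.28 to 9.70 in ICH and 10.4 to 17.0 in sham, mostly Cd4. In ICH against sham Cd4 fell (log2 change -0.74 ± 0.21) and Cd8a was called higher, at 0.133, 0.0951 and 0.0701 FPKM in ICH and listed at 0 in the 3 sham libraries, and the other 3 tested genes were not called. Cd4 was also lower in ICH+P7C3-A20 than in sham (-0.98 ± 0.22). Erythroid precursor markers, mostly Tfrc, summed to 8.28 to 11.3 FPKM in ICH+P7C3-A20, 7.28 to 9.77 in ICH and 10.1 to 14.5 in sham, with Klf1 at 0 in ICH and sham. Tfrc fell in ICH against sham (-0.64 ± 0.14). Neuron markers ran the other way, at 363.5 to 496.0 FPKM in ICH+P7C3-A20, 280.1 to 308.3 in ICH and 440.2 to 481.9 in sham. All 5 fell in ICH against sham (Eno2 -0.63 ± 0.11, Rbfox3 -0.65 ± 0.15, Syt1 -0.80 ± 0.21) and 2 were higher in ICH+P7C3-A20 than in ICH. Over all 12 marker lists 22 genes were called in ICH+P7C3-A20 against ICH, 14 without ICH+P7C3-A20 1 and 11, 9 and 13 without ICH 1, 2 and 3. In those 4 fits 3.58%, 3.01%, 2.52% and 2.97% of all tested genes were called. Against sham, 20 were called in ICH+P7C3-A20, and 11 without ICH+P7C3-A20 3 or without sham 1, where 2.37% and 2.88% of all tested genes were called. The part of these cell types in the change of the mitotic genes was not tested, and in bulk tissue fewer dividing cells cannot be told apart from less of these RNAs in each cell.

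**Figure D5:**
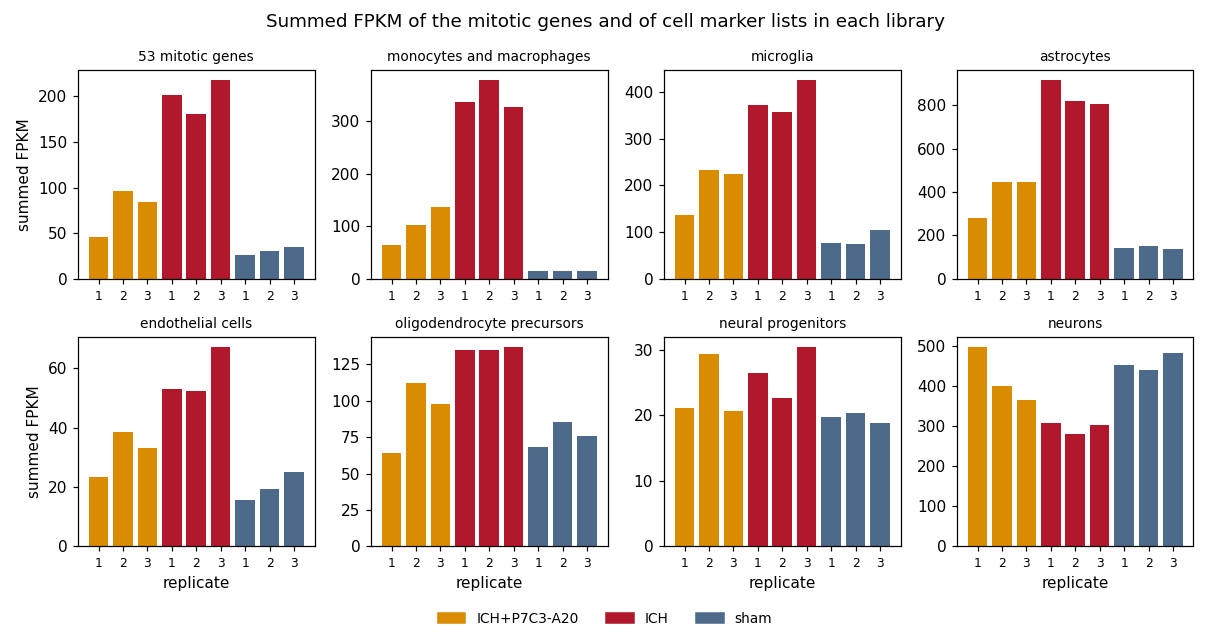
Summed FPKM in each of the 9 libraries of the 53 mitotic genes and of 7 cell marker lists, with bars from 0 and replicates 1, 2 and 3 of each group from left. Mitotic, monocyte and macrophage, microglia, astrocyte and endothelial sums are highest in ICH and lower in all 3 ICH+P7C3-A20 libraries, while neuron sums are lowest in ICH.

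Some members share sequence with other genes (at least 200 bases at 95% identity), so that the counting could split their reads. Besides those described below, these were Cdc20, Mad2l1, Mki67, Pbk and Racgap1. The longest match among them was that of Pbk, 955 bases with Gm12387, which had 2 counts over all libraries, against 4448 for Pbk. Ccnb1 has near-identical pseudogene copies, of which Ccnb1-ps matched it at 99.2% over 1287 bases. Ccnb1-ps was not called (log2 change 1.57 in ICH against sham, edgeR adjusted p = 0.148), nor was another copy, Gm12856 (log2 change 3.56, edgeR adjusted p = 0.0706; 112 counts over all libraries, against 5180 for Ccnb1). Ndc80 shares 303 bases with 2700099C18Rik, which had 1389 counts over all libraries, against 1743 for Ndc80, and was not called (log2 change 1.19 in ICH against sham, edgeR adjusted p = 0.055). The transcripts of Ccna2, Cdc25c, Kif20a, Kif4, Ncapg and Prc1 overlap those of a neighbour on the opposite strand, and the strand setting of the counting is not given in the sources used here. Their neighbours Exosc9, Gm3550, Cdc23, Pdzd11, Lcorl and Rccd1 had log2 changes of -0.13, 0.79, 0.08, 0.12, -0.04 and -0.04 in ICH against sham and were not called.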

How the data were processed

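Polyadenylated RNA of 9 brains was made into strand-marked libraries, per the labels' protocols. The submitters' processing notes name cutadapt 1.9, HISAT2 2.0.4 and StringTie 1.3.4d. Neither the genome build nor how reads were counted, strand included, is given in the sources used here. FPKM values and whole-number estimated counts were deposited by the authors for each gene and library. For low single-transcript genes the deposited estimated count was set against FPKM times transcript length times a constant of each library, rounded up. In 93.0% to 94.2% of these genes the values were equal (tolerance 0.01). The constant was tuned for the best match, so this share is a best case. Counts were taken as estimates and used as they stand. Of 53 members, 50 had the identical position and strand in GENCODE M21 (GRCm38).

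Low genes were dropped with filterByExpr at a count of 10 and a total of 15, libraries were TMM-scaled, and edgeR 4.0.16 (R 4.3.3) fitted robust quasi-likelihood models of 3 group means over 9 libraries (6 residual degrees of freedom). A gene was called where the Benjamini-Hochberg adjusted p of the two-sided test was below 0.05. The error of a log2 change is that change divided by the square root of its F value. The fit was tested on simulated data. Alternatives were other filters and scalings, DESeq2 1.42.0, limma 3.58.1 on log2(FPKM + 1) or log2(FPKM + 0.1), quantile normalization, fits of only the groups compared, fits with the replicate number as a block, and leaving out 1 library at a time. BLAST 2.17.0 searched for shared sequence, and figures were drawn with matplotlib 3.10.9. The limit of 3 counts covers counting error only.

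The members, their roles and the other lists were chosen with earlier results of these data known, so no list stands as independent support. Values in every library were to be given for the 2 most abundant members of each role, Mki67, Cdk1, Ccnb1, Top2a, members not called in ICH against sham or called in ICH+P7C3-A20 against ICH, and the 3 highest and 3 lowest log2 changes; the few remaining members were added after their values were seen. Up to 3 genes of the smallest p in ICH against sham were named from each other list, and a few genes are not reported here.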

Additional observations from a re-analysis of the deposited data

How the results depend on the processing

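In ICH against sham the count of called members was 51 or 52 under every alternative run, and the one call lost was that of Anln. The median log2 change of the members was 1.43 with limma on log2(FPKM + 1), 2.93 on log2(FPKM + 0.1) and 1.28 after quantile normalization, and 3.09 to 3.47 with single libraries left out. The count of 43 in ICH+P7C3-A20 against ICH ran from 21 to 41 and the median from -1.68 to -1.23 with single libraries left out, and the median was -0.92 with limma on log2(FPKM + 1) and -0.83 after quantile normalization. A pseudocount of 1 shrinks log2 changes of genes at low levels, and only 4 members averaged at least 1 FPKM in sham. The count of 46 in ICH+P7C3-A20 against sham was 10, 25 and 19 with limma on log2(FPKM + 1), on log2(FPKM + 0.1) and after quantile normalization, with medians of 0.53, 1.35 and 0.46, and 22 with the compared groups alone. With single libraries left out it ran from 29 to 49 and the median from 1.56 to 1.99. In the fit of the compared groups alone 1.89% of all tested genes were called higher. No such share is given for the limma fits. There, a loss particular to the members cannot be told from fewer calls over all genes, and the same holds for the limma counts of the lists below. Of the 9 other division lists, 74 genes were called in ICH+P7C3-A20 against ICH by DESeq2 (47 by edgeR), and 16 to 41 with single libraries left out. Against sham, 48 were called in ICH+P7C3-A20 by DESeq2 (30 by edgeR), 3, 10 and 9 by the 3 limma fits, 10 with the compared groups alone and 14 to 47 with single libraries left out. Of the cell markers, 9 to 21 were called in ICH+P7C3-A20 against ICH with single libraries left out (22 with all). Against sham, 31 were called in ICH+P7C3-A20 by DESeq2 (20 by edgeR), 11, 12 and 12 by the limma fits, 9 with the compared groups alone and 11 to 25 with single libraries left out. The log2 change of Pttg1 in ICH+P7C3-A20 against sham (0.0044) was -0.0322 with no filter, -0.0133 with RLE size factors, -0.0128 with DESeq2, -0.0141 with the compared groups alone and -0.069 to 0.151 with single libraries left out. That of Anln (-0.0803) was -0.284 to 0.179, above 0 without ICH+P7C3-A20 1. The cause of these shifts was not tested. Same-numbered samples did not deviate together (correlations of -0.128 to 0.0919), so the numbers were not taken as pairs. With a replicate block 51, 48 and 45 members were called when ICH was set against sham and ICH+P7C3-A20 against ICH and against sham. With 3 mice a group and low levels in sham, small changes may be missed.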
